A study of Mus musculus with 84 samples.

Results

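The samples described here are the control reprogramming cells on days 8 and 10. They were chosen by their labels alone and make up 15 of the 84 wells that were sequenced, 9 on day 8 and 6 on day 10. The wells of a replicate were summed, 3 on day 8 and 2 on day 10, which left 3 libraries on each day. The cells were TNG MKOS MEFs of strain background 129, fibroblasts from chimeric mouse embryos that carry a Nanog-GFP reporter on 1 allele, a CAG-driven rtTA and, in the Sp3 locus, a cassette (MKOS) from which doxycycline induces the factors c-Myc, Klf4, Oct4 and Sox2 together with mOrange. They were a minority in a mixture with wild-type MEFs, infected with a retroviral vector for a blue fluorescent protein (Cont), kept in medium for ESCs that held doxycycline (300 ng/ml) and vitamin C (10 µg/ml in the series' design), and sorted for mOrange on the day of harvest. All reprogramming groups share the cassette, the doxycycline and the vitamin C. The other groups used here are the same cells with a vector for constitutively active Smad3 (+Sm3CA) on days 8 and 10, Cont cells on days 3 and 6, wild-type MEFs of strain 129 and TNG MKOS ESCs, each with 3 libraries. Smad3 is the transcription factor that carries TGF-β and Nodal signals into the nucleus.

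Reprogramming by these 4 factors turns a fibroblast into an induced pluripotent stem cell. Fibroblast genes are silenced early and an epithelial programme follows, in which cells join by E-cadherin and claudins. The genes that hold the pluripotent state, among them Nanog and Rex1 (Zfp42), come on late and in a minority of cells. The step from day 8 to day 10 lies between the epithelial stage and that late stage. RNA was measured with STRT, which reads a tag at each transcript's 5′ end, so that a count is a number of reads and not of molecules. Levels are given as normalized counts, the reads of a library divided by its size factor, and are compared between libraries but not between genes. In bulk samples such as these, fewer cells of a type and less RNA per cell cannot be told apart.

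The day 8 libraries held 1304562 to 2296059 reads and the day 10 libraries 1139335 to 1434427. They detected 13509 to 14096 and 13097 to 13603 genes, and mitochondrial genes took 17.0% to 19.9% and 15.9% to 18.9% of the reads. No pair of replicates had identical counts or agreed within sampling noise. The number of wells and the plate row went with the day and cannot be told apart from it. With 2 wells per library on both days 232 genes were called, 209 of them also called with all wells. The plate rows of the days still differed there. Of 10 fibroblast markers 1 was higher on day 10 and 0 were lower, with a summed level of 1233 to 1567 on day 8 and 1227 to 2496 on day 10 against 4242 to 5853 in MEFs. Of 10 ESC markers 8 were higher, and their sum went from between 50.1 and 64.4 to between 405 and 994, against 30320 to 54260 in ESCs. The 8 epithelial markers summed to 709.9 to 806 and 882 to 1114, with 2 of 8 higher. Markers of skeletal muscle were at or near 0 on both days, with sums of at most 2.39 and 2.83.

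Between day 8 and day 10, 246 of the 10237 genes with enough reads differed by edgeR's quasi-likelihood test at an adjusted p under 0.05, which is 2.4%. Of these, 162 rose (1.58% of the genes tested) with a median change of 2.69-fold, and 84 fell (0.821%) with a median of 2.07-fold. With scaling by total counts only, 173 rose and 53 fell, and the median of all genes moved from 0.02 to 0.07 on the log2 scale. At an unadjusted p under 0.05 there were 1474 genes. The libraries of the 2 days did not overlap for 1863 genes (18.2%), with every day 10 library above every day 8 library for 1023 (9.99%) and the reverse for 840 (8.21%). Among the called genes this held for 150 of the 162 that rose and 79 of the 84 that fell. Library numbers are paired over days by the series' design, and with the replicate number as a block 256 genes were called, 230 of them among the 246. Single libraries carried many calls. With replicate 1 of day 8 left out, 104 genes were called, 102 of them the same, while 50 of the 162 and 14 of the 84 genes were called with any one of the 6 libraries left out. In what follows, errors of log2 fold changes are standard errors (SE) from the fit, and a call lost by leaving out a library is given with the adjusted p found without it. Calls within a gene list are to be read beside the 1.58% called higher and 0.821% called lower over all genes tested.

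**Figure D1:**
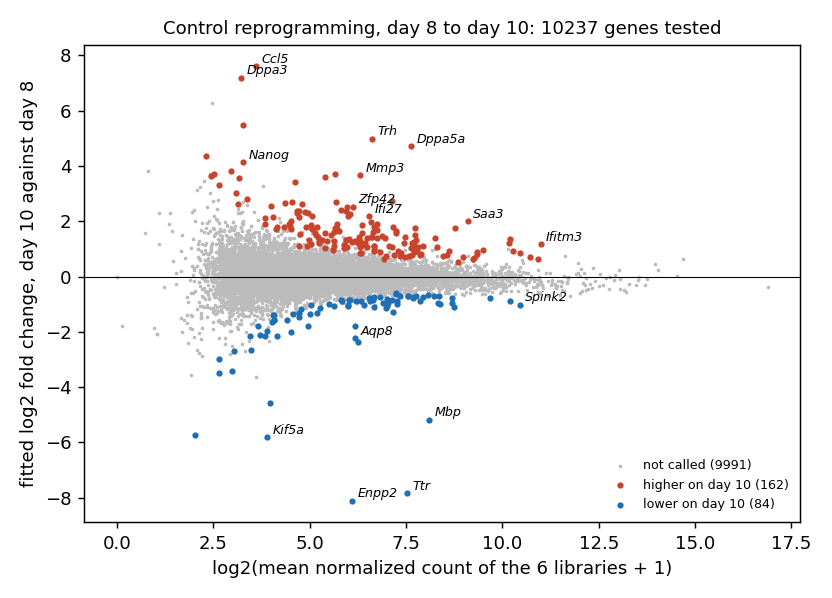
Fitted log2 fold change of day 10 against day 8 (y axis) over the log2 of the mean normalized count of the 6 Cont libraries plus 1 (x axis), with 1 point per gene tested. The 162 genes called higher are red, the 84 called lower are blue, and the points at the extremes (Dppa3, Ccl5 and Enpp2) belong to genes with no or almost no reads on one of the days, whose fitted values are not bounds.

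Pluripotency genes were among the largest rises. Zfp42 (Rex1), a marker of naive ESCs (chr8:43295067-43307009 in GRCm38), had 14.7, 25.3 and 20.9 normalized counts on day 8 and 116, 75.3 and 160.2 on day 10. Each day 10 library thus lay above each day 8 library, by 5.76-fold in the fit (log2 fold change 2.53 ± 0.30, adjusted p = 5.68e-07). Nanog (chr6:122707489-122714633), whose activation marks the pluripotent state and whose reporter the cells carry, had 1.13, 0 and 1.19 on day 8 and 22.2, 10.8 and 17 on day 10. It was all but silent on day 8, with a ratio of the summed counts of 19.4 (95% interval 6.24 to 97.7), an interval that covers counting error only (log2 fold change 4.13 ± 0.83, adjusted p = 0.00275). ESCs held 202 ± 156 (SD) normalized counts of Nanog and 2812 ± 739 (SD) of Zfp42, so day 10 was still far below them. Sall4, a zinc finger factor of the ESC network, had 9.06, 1.06 and 6.56 on day 8 and 22.2, 19.12 and 22.6 on day 10 (log2 fold change 1.90 ± 0.50, adjusted p = 0.027). These 3 were the only ones called of 14 naive pluripotency factors tested, of which 10 had a positive change and the median was 0.72 on the log2 scale, against 0.02 over all genes. Values that did not pass were those of Esrrb (4.53, 1.06 and 4.18 on day 8 and 13.6, 11.9 and 8.48 on day 10, adjusted p = 0.205), whose day 10 libraries lay above those of day 8, and Tfcp2l1 (13.6, 8.44 and 10.7 on day 8 and 12.3, 28.7 and 40.5 on day 10, adjusted p = 0.126), whose libraries overlapped. In MEFs and in Cont cells of day 3, Nanog had means of 0.37 and 0 and Zfp42 of 1.59 and 12.2, and on day 6 they stood at 0.319 and 25.6. The call of Sall4 was lost without replicates 2 or 3 of day 8 or any replicate of day 10 (adjusted p = 0.055 to 0.168).

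The other genes known from ESCs moved further, with a median of 1.84 over 19 tested, of which 6 rose and 0 fell. Dppa5a, an RNA-binding protein of ESCs and the germline (chr9:78367052-78368199), had the smallest adjusted p of all genes. It had 21.5, 13.7 and 10.7 normalized counts on day 8 and 362, 202 and 580.5 on day 10, a 26.2-fold rise (log2 fold change 4.71 ± 0.44, adjusted p = 5.97e-09), and 32823 ± 13627 (SD) in ESCs. Dppa3 (Stella, chr6:122626424-122630271), which protects DNA methylation in the early embryo, had 0, 0 and 0 on day 8 and 30.9, 7.17 and 12.2 on day 10. With no read on day 8 it was at least 6.02-fold higher on day 10, taking 3 reads per library as the floor (adjusted p = 0.000495). Gdf3, a TGF-β family ligand, had 7.92, 6.33 and 4.18 on day 8 and 48.1, 28.7 and 38.6 on day 10 (log2 fold change 2.70 ± 0.52, adjusted p = 0.00147). Fbxo15, an early reporter gene of pluripotency, had 3.4, 1.06 and 2.39 on day 8 and 17.3, 14.3 and 17.9 on day 10 (log2 fold change 2.80 ± 0.59, adjusted p = 0.00415). Both lay wholly above day 8 in every day 10 library. Dppa2 and Dppa4, chromatin factors that work as a pair and were named after their values were seen, also rose. Dppa2 had 1.13, 0 and 1.19 on day 8 and 14.8, 2.39 and 21.7 on day 10, a ratio of the summed counts of 16 (95% interval 5.06 to 81) with an adjusted p of 0.0165. Dppa4 had 2.26, 0 and 0.597 on day 8 and 9.88, 3.58 and 15.1 on day 10, a ratio of 11.7 (95% interval 3.59 to 60.03) with an adjusted p of 0.0442. Replicate 2 was the lowest day 10 library for both. Replicate 2 was the lowest day 10 library for 11 of the 19 genes and replicate 3 the highest for 11. Tdh, the threonine dehydrogenase of ESCs, is on the list and did not pass, with 222, 193 and 147 on day 8 and 159, 127 and 217 on day 10 (adjusted p = 0.831), and it had already reached a mean of 309 on day 3. By the DESeq2 Wald test 3 of the 6 rises were called, and Dppa3 was not (adjusted p = 0.367, with 1.19e-08 to 0.367 across the alternatives). The call of Dppa2 was lost without any replicate of day 8 or replicate 3 of day 10 (adjusted p = 0.055 to 0.174). That of Dppa4 was lost without any replicate of day 8 or replicates 1 or 3 of day 10 (adjusted p = 0.0661 to 0.27).

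**Figure D2:**
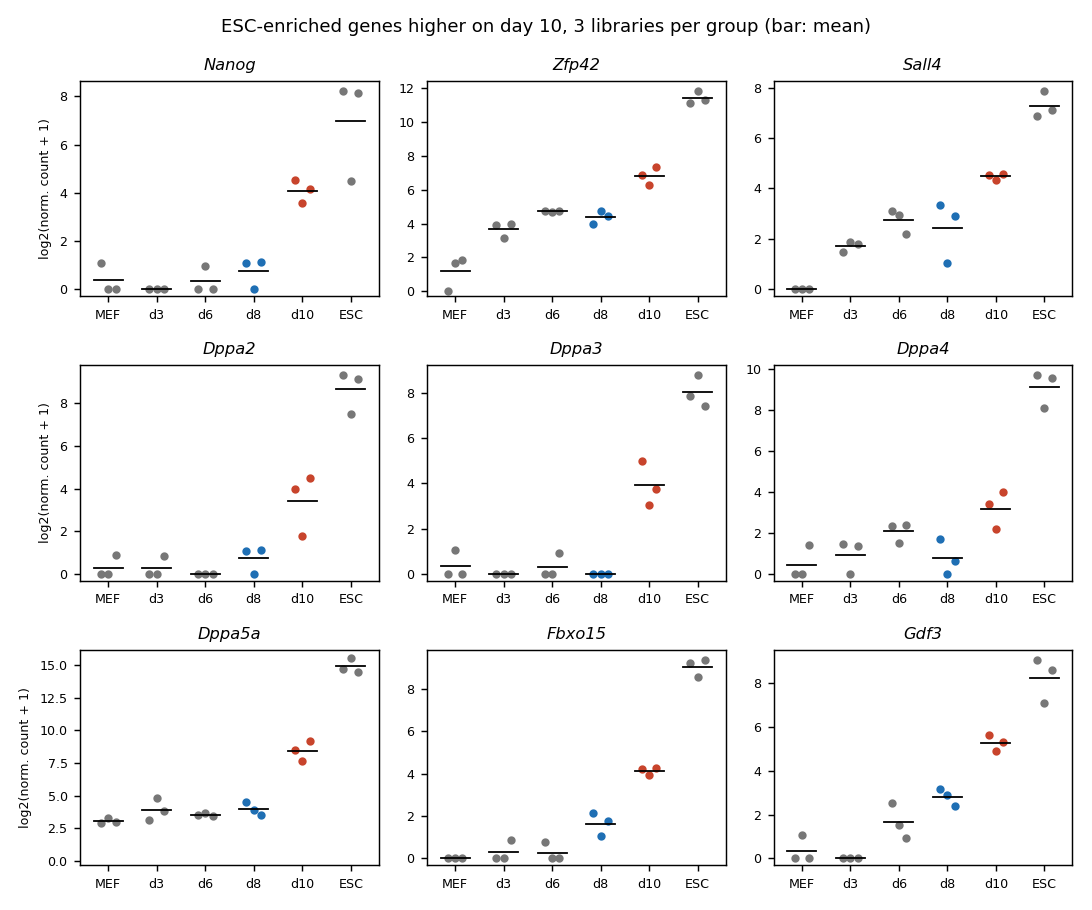
The log2 of the normalized count plus 1 (y axis) of the 9 called genes of the naive factor and ESC gene lists in MEFs, Cont cells of days 3, 6, 8 and 10, and ESCs (x axis), with 1 point per library and a bar at the mean of 3. Day 8 (blue) stays near the level of day 6 for most of the 9 genes, day 10 (red) lies above it in every library, and ESCs lie above day 10.

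A further 4 genes outside the lists had large rises. Trh, which encodes thyrotropin-releasing hormone and is high in ESCs (mean 527), had 4.53, 1.06 and 10.1 normalized counts on day 8 and 82.7, 84.8 and 404 on day 10, so replicate 3 was far above the others on day 10, and the fitted rise was 31.4-fold (log2 fold change 4.97 ± 0.52, adjusted p = 3.29e-08). Fam25c had 7.92, 10.6 and 4.18 on day 8 and 76.5, 64.5 and 134 on day 10 (log2 fold change 3.69 ± 0.37, adjusted p = 1.38e-08). AU018091 had 7.92, 5.28 and 3.58 on day 8 and 27.2, 31.1 and 43.3 on day 10 (log2 fold change 2.67 ± 0.48, adjusted p = 0.000651), against an ESC mean of 197. Tcl1, a co-activator of AKT in ESCs that was named after its values were seen, had 2.26, 3.17 and 16.7 on day 8 and 28.4, 27.5 and 68.8 on day 10 (log2 fold change 2.31 ± 0.50, adjusted p = 0.00637). All 4 were higher in each day 10 library than in each day 8 library. The call of Tcl1 was lost without replicates 1 or 2 of day 8 or replicate 3 of day 10 (adjusted p = 0.0651 to 0.162).

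Signalling genes of the Nodal pathway, which acts through Smad2 and Smad3, had a median of 0.05 over 11 tested and 2 calls, both higher. Tdgf1 (Cripto), the co-receptor of Nodal, had 1.13, 13.7 and 4.77 normalized counts on day 8 and 44.4, 53.8 and 132 on day 10, a 12-fold rise (log2 fold change 3.59 ± 0.53, adjusted p = 6.31e-05). Lefty2, a secreted Nodal inhibitor and target, had 39.6, 22.2 and 30.4 on day 8 and 64.2, 63.3 and 69.7 on day 10 (log2 fold change 1.10 ± 0.30, adjusted p = 0.0353). Lefty1 was not called (11.3, 7.39 and 11.9 on day 8 and 24.7, 8.36 and 7.54 on day 10, adjusted p = 0.848). Smad3 itself had 9.06, 8.44 and 7.16 on day 8 and 14.8, 21.5 and 25.4 on day 10, without overlap of the days but short of the threshold (log2 fold change 1.36 ± 0.43, adjusted p = 0.0882). Etv5, a target of FGF and ERK signals, had 11.3, 4.22 and 10.1 on day 8 and 30.9, 26.3 and 48.1 on day 10 (log2 fold change 2.01 ± 0.49, adjusted p = 0.0148) and was the 1 call among 12 ERK feedback genes and FGF receptors. Of 15 genes of the BMP pathway 1, Smad9, fell, with 17, 8.44 and 4.18 on day 8 and 0, 0 and 1.88 on day 10 (adjusted p = 0.0457, and 0.0544 with the replicate block, with 0.0138 to 0.266 across the alternatives). The call of Lefty2 was lost without any replicate of day 8 or any replicate of day 10 (adjusted p = 0.0511 to 0.191). The call of Etv5 was lost without replicate 2 of day 8 (adjusted p = 0.11) or replicate 3 of day 10 (adjusted p = 0.147), and that of Smad9 without replicates 1 or 2 of day 8 or any replicate of day 10 (adjusted p = 0.0551 to 0.266).

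Among 16 genes of DNA methylation and histone demethylation 2 rose and 1 fell. Tet1, a dioxygenase that oxidises methylcytosine and is high in ESCs (mean 629.9), had 12.5, 7.39 and 6.56 on day 8 and 37, 21.5 and 31.1 on day 10 (log2 fold change 1.80 ± 0.47, adjusted p = 0.0287). Zfp57, which keeps imprints methylated, had 11.3, 21.1 and 22.7 on day 8 and 40.7, 28.7 and 51.8 on day 10 (log2 fold change 1.11 ± 0.30, adjusted p = 0.0361). Dnmt3a, a de novo methyltransferase, had 97.4, 95 and 92.5 on day 8 and 49.4, 40.6 and 63.1 on day 10, with every day 8 library above every day 10 library (log2 fold change −0.88 ± 0.25, adjusted p = 0.0457), and its adjusted p was 0.0538 with the replicate block, with 0.0111 to 0.214 across the alternatives. The ESC form Dnmt3b was low on both days (5.66, 0 and 5.37 on day 8 and 4.94, 8.36 and 7.54 on day 10, adjusted p = 0.628). Calls were lost without replicates 2 or 3 of day 8 or replicates 1 or 3 of day 10 (adjusted p = 0.0924 to 0.116) for Tet1. They were lost without replicates 1 or 2 of day 8 or replicates 1 or 3 of day 10 (adjusted p = 0.071 to 0.281) for Zfp57 and without any replicate of day 8 or any replicate of day 10 (adjusted p = 0.0502 to 0.214) for Dnmt3a.

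Of the 4 reprogramming factors 0 were called by edgeR or by the DESeq2 Wald test and 1 had an unadjusted p under 0.05, and their counts can include the cassette. Pou5f1 (Oct4) had 82.6, 64.4 and 91.3 on day 8 and 80.2, 104 and 118 on day 10 (adjusted p = 0.493). Sox2 had 29.4, 26.4 and 23.3 on day 8 and 19.8, 17.9 and 27.3 on day 10 (adjusted p = 0.83) and Myc 21.5, 33.8 and 38.2 on day 8 and 17.3, 23.9 and 21.7 on day 10 (adjusted p = 0.456), with overlapping days for all 3 of these. Klf4 was that 1, its days did not overlap, and it had 28.3, 19 and 28 on day 8 and 8.64, 11.9 and 13.2 on day 10 (log2 fold change −1.14 ± 0.35, adjusted p = 0.0796).

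Of 23 epithelial junction genes tested 5 were called, all higher, 13 had every day 10 library above every day 8 library, and the median was 0.70. Over all genes tested 1.58% were called higher and 9.99% had every day 10 library above every day 8 library. Cldn6, a claudin of tight junctions in early embryonic epithelium, had 4.53, 3.17 and 13.1 normalized counts on day 8 and 29.6, 55 and 57.5 on day 10, a 6.12-fold rise (log2 fold change 2.61 ± 0.50, adjusted p = 0.00143), and an ESC mean of 54.2. Cldn7 had 17, 8.44 and 13.7 on day 8 and 19.8, 55 and 60.3 on day 10 (log2 fold change 1.79 ± 0.41, adjusted p = 0.00953). Dsg2, a desmosomal cadherin, had 23.8, 10.6 and 17.3 on day 8 and 24.7, 76.5 and 53.7 on day 10 (log2 fold change 1.59 ± 0.35, adjusted p = 0.00575). For Cldn7 and Dsg2, replicate 1 of day 10 lay only just above the highest day 8 library. Rab25, a small GTPase of epithelial vesicle traffic, had 2.26, 6.33 and 4.18 on day 8 and 28.4, 17.9 and 30.2 on day 10 (log2 fold change 2.55 ± 0.57, adjusted p = 0.00752). The genes that define the epithelial stage had come up earlier. Cdh1 (E-cadherin) had means of 17.9 on day 3 and 151 on day 6 and then 149, 84.4 and 126 on day 8 and 170.4, 160.1 and 156 on day 10 (log2 fold change 0.44 ± 0.20, adjusted p = 0.296), and Epcam had 66.6 on day 6 and then 57.7, 49.6 and 59.1 on day 8 and 66.7, 68.1 and 82.9 on day 10 (adjusted p = 0.498). The calls of Cldn7 and Dsg2 were lost without replicate 2 of day 8 or replicates 2 or 3 of day 10 (adjusted p = 0.0658 to 0.132), and without replicate 2 of day 8 (adjusted p = 0.071) or replicate 2 of day 10 (adjusted p = 0.112), in that order. That of Rab25 was lost without replicate 1 of day 8 (adjusted p = 0.0661) or replicate 3 of day 10 (adjusted p = 0.0625).

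Among 21 keratins and genes of the cornified envelope, 2 rose, 19 had a positive change and the median was 0.43. Dmkn (dermokine) had 38.5, 108 and 78.2 normalized counts on day 8 and 322, 177 and 177 on day 10 (log2 fold change 1.58 ± 0.26, adjusted p = 0.000263), and Krtdap (keratinocyte differentiation-associated protein) had 451, 609 and 403 on day 8 and 925, 1009.6 and 925 on day 10 (log2 fold change 0.97 ± 0.19, adjusted p = 0.00202). Their mean was 0.602 and 4.43 in ESCs and 0 and 2.05 in MEFs, so both were low at either end of the process. Klk10, a kallikrein protease of epithelia that was named after its values were seen, had 13.6, 14.8 and 23.3 on day 8 and 46.9, 128 and 107 on day 10 (log2 fold change 2.39 ± 0.33, adjusted p = 1.84e-05), with ESC and MEF means of 2.73 and 0.288. The keratin Krt8 of simple epithelia did not pass (514, 531 and 444 on day 8 and 517, 534 and 620.0 on day 10, adjusted p = 0.711) and had its highest mean on day 6 (692). Of 16 surface markers of reprogramming stages 2 were called, from a family with many copies whose reads may be split. Ly6c1 had 172, 169.9 and 252 on day 8 and 612, 719 and 671 on day 10 (log2 fold change 1.74 ± 0.24, adjusted p = 1.84e-05). Ly6a (Sca-1) had 40.8, 35.9 and 75.2 on day 8 and 87.7, 183 and 148 on day 10 (log2 fold change 1.42 ± 0.29, adjusted p = 0.00332). The S100 proteins S100a14 and S100a3, expressed in epidermis, were 2 calls of 11. S100a14 had 7.92, 30.6 and 10.1 on day 8 and 38.3, 45.4 and 80.1 on day 10 (adjusted p = 0.00575). S100a3 had 17, 21.1 and 25.7 on day 8 and 54.3, 34.6 and 68.8 on day 10 (adjusted p = 0.039). The call of Ly6a was lost without replicate 2 of day 10 (adjusted p = 0.0512). That of S100a14 was lost without replicates 1 or 3 of day 8 or replicate 3 of day 10 (adjusted p = 0.0569 to 0.137), and that of S100a3 without any replicate of day 8 or replicates 1 or 3 of day 10 (adjusted p = 0.0542 to 0.27).

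Interferon-stimulated genes gave the most calls of any list, with 18 of 34 higher, 0 lower and all 34 changes positive, where 5293 of all 10237 genes had a positive change. The lists were chosen with earlier results of these data known, so the rank of this list is not an independent test. Interferon-stimulated genes encode antiviral proteins. Cells that sense interferon or foreign nucleic acid activate interferon regulatory factors, which bind a sequence called the interferon-stimulated response element (ISRE) beside the start of such genes. Its core GAAANNGAA was searched on both strands of the 250 bases before each gene's start in RefSeq (GRCm38.p6). Of the 18 genes 11 have an entry there, and 4 of these (36.4%) hold the core, against 8.18% of 27025 RefSeq genes and 7.28% of the genes tested. Of all 34 interferon-stimulated genes tested, called or not, 11 of 25 with an entry hold it (44%). The core was in 19 of 105 of all genes that rose (18.1%) and 4 of 63 that fell (6.35%). Among 6 other motifs searched in the same way, the AP-1 site TGANTCA, bound by FOS and JUN dimers, was in 5 of the 11 called interferon-stimulated genes (45.5%) and 7 of the 25 (28%), against 5.51% of the genes tested, and in 16 of the 105 that rose (15.2%). The TATA box TATAAA was in 2 of the 11 (18.2%, against 8.05%), and the E-box CACGTG, the octamer ATGCAAAT, the KLF box GGGTGTGGC and the STAT site TTCCNGGAA were in 0 of the 11. A match is a run of letters and does not show that a factor binds there. The 160 bases before the start of these 4 genes are printed because they are the stretches that hold it. Each runs 5′ to 3′ on the gene's own strand, and the capitals mark the core, which is written as its reverse complement where it lies on the opposite strand. In Ifit1 and Oas1a 2 matches overlap. They are chr19:34640729-34640888 (plus strand, 3 matches) for Ifit1, chr19:34583369-34583528 (plus strand, 3) for Ifit3, chr5:120907526-120907685 (minus strand, 2) for Oas1a and chr12:26456453-26456612 (minus strand, 1) for Rsad2.
Ifit1: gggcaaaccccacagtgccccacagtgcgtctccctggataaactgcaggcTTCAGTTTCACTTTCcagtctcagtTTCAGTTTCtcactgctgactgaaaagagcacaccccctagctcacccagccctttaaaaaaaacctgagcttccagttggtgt
Ifit3: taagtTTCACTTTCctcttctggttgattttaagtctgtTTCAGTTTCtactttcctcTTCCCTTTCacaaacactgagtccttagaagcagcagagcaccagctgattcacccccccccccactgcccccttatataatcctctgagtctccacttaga
Oas1a: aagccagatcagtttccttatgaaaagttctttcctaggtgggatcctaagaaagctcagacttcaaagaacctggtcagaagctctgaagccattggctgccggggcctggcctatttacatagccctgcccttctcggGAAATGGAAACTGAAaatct
Rsad2: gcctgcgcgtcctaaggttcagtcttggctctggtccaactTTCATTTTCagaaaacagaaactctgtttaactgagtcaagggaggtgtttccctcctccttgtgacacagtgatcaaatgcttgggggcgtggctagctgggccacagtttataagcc

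Ifit1, whose protein binds foreign RNA caps and which has the pair of overlapping cores above, had 64.5, 103 and 121 normalized counts on day 8 and 231, 419 and 339 on day 10, a 3.38-fold rise (log2 fold change 1.76 ± 0.36, adjusted p = 0.00295). Ifit3, its partner protein, had 32.8, 36.9 and 63.8 on day 8 and 97.5, 179 and 197 on day 10 (log2 fold change 1.79 ± 0.40, adjusted p = 0.00682). Rsad2 (viperin), an antiviral enzyme, had 12.5, 19 and 34 on day 8 and 77.8, 76.5 and 76.3 on day 10 (log2 fold change 1.75 ± 0.47, adjusted p = 0.0363), so the 3 day 10 libraries were nearly equal. Oas1a, which makes a second messenger in response to double-stranded RNA, had 10.2, 7.39 and 16.7 on day 8 and 65.4, 39.4 and 56.5 on day 10 (log2 fold change 2.17 ± 0.46, adjusted p = 0.00415), with reads that may be shared with its close copy Oas1g. These 4 were named for their promoters after their values were seen. By the rule of smallest adjusted p the list's leading genes were Ifi27, Lgals3bp, Ifitm3 and Oasl2. Ifi27 had 22.6, 32.7 and 42.4 on day 8 and 141, 167 and 147 on day 10 (log2 fold change 2.18 ± 0.26, adjusted p = 5.68e-07), the smallest adjusted p of the list. Lgals3bp, a secreted lectin ligand, had 17, 20.05 and 29.8 on day 8 and 37, 128 and 160.2 on day 10 (log2 fold change 2.25 ± 0.37, adjusted p = 0.000263). Ifitm3, which blocks the entry of viruses, had 871, 1199.7 and 1688 on day 8 and 2388, 3080.1 and 2976 on day 10 (log2 fold change 1.17 ± 0.21, adjusted p = 0.000783). Oasl2 had 17, 36.9 and 49.5 on day 8 and 119, 148 and 121 on day 10 (log2 fold change 1.86 ± 0.35, adjusted p = 0.00104). In each of these 8 genes every day 10 library lay above every day 8 library.

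Levels had been lower before day 8. Ifit1 had means of 0.73 on day 3 and 5.57 on day 6, Oasl2 0 and 0.843, and Rsad2 0 and 2. In ESCs and MEFs the means were 1.81 and 0 for Ifit1, 0 and 1.47 for Oasl2 and 0 and 0.37 for Rsad2, so these genes were low at both ends of the process. Ifi27 and Ifitm3 differed in this, with MEF means of 86.8 and 1897. Over the list the median change was 1.29, and for 22 of the 34 genes every day 10 library lay above every day 8 library, where 9.99% of all genes do so. Irf7, a regulator of the response, did not pass, with 3.4, 16.9 and 18.5 on day 8 and 16, 64.5 and 42.4 on day 10 (adjusted p = 0.156). Isg15 (4.53, 15.8 and 34.6 on day 8 and 16, 66.9 and 32 on day 10, adjusted p = 0.403) and Cxcl10 (112, 73.9 and 135 on day 8 and 82.7, 281 and 134 on day 10, adjusted p = 0.512) did not pass either.

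The libraries were not equal in these genes. Replicate 1 was the lowest of the 3 day 8 libraries for 24 of the 34 and the lowest of the 3 day 10 libraries for 26, while replicate 3 was the highest on day 8 for 29 and replicate 2 the highest on day 10 for 23. The number of calls was 6 without replicate 1 of day 8, 12 without its replicate 2, 20 without its replicate 3, and 16, 10 and 11 without replicates 1, 2 and 3 of day 10. It was 9 by the DESeq2 Wald test and 17 with the replicate block. The median stayed at 1.19 without replicate 1 of day 8. Among the genes above, the call of Ifit3 was lost without replicates 1 or 2 of day 8 or replicate 3 of day 10 (adjusted p = 0.0612 to 0.0819). That of Rsad2 was lost without replicates 1 or 2 of day 8 or any replicate of day 10 (adjusted p = 0.0669 to 0.217). Ifi27, Lgals3bp, Ifitm3, Oasl2, Oas1a and Ifit1 were called with any single library left out, although by the DESeq2 Wald test the adjusted p of Ifit1 was 0.357 (range 7.68e-12 to 0.357 over its alternatives).

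**Figure D3:**
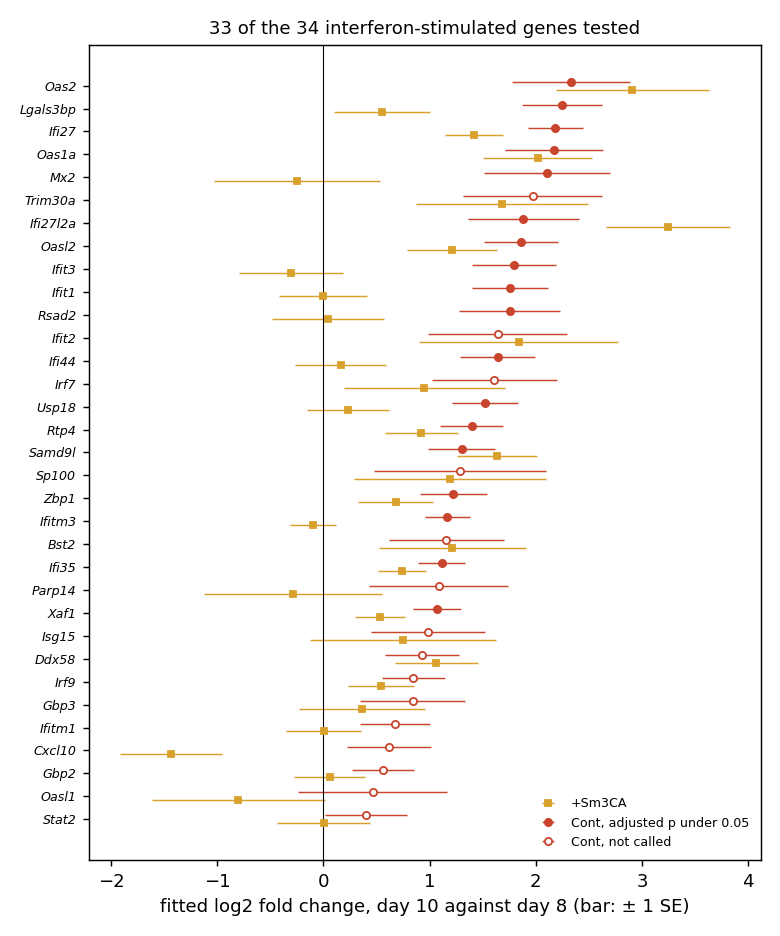
Fitted log2 fold change of day 10 against day 8 (x axis, bars are ± 1 SE) for 33 of the 34 interferon-stimulated genes tested (y axis) in Cont (circles, filled where the adjusted p was under 0.05) and in +Sm3CA (squares), with 3 libraries per group and day. All Cont values plotted lie to the right of 0 and 18 are filled, while the +Sm3CA values lie on both sides of it.

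The list of MHC class I genes, whose products present peptides on the cell surface and are raised by interferon, gave 2 calls of 13 with a median of 0.47. H2-L, H2-K2 and H2-T9 of the same family are not on the list. They were called too, but were seen after the fact and are not described. H2-K1 had 62.3, 33.8 and 54.9 normalized counts on day 8 and 131, 183 and 169.6 on day 10, a 3.19-fold rise (log2 fold change 1.67 ± 0.24, adjusted p = 3.69e-05), and H2-D1 had 112, 103 and 134 on day 8 and 201, 245 and 184 on day 10 (log2 fold change 0.84 ± 0.20, adjusted p = 0.01). These genes are close copies of each other, so their reads may be split between them. B2m, the constant partner of the heavy chains, lay higher in every day 10 library without passing (3211, 3294 and 3406 on day 8 and 4636, 4989 and 4371 on day 10, log2 fold change 0.50 ± 0.18, adjusted p = 0.138). The call of H2-D1 was lost without replicates 1 or 2 of day 8 or replicate 2 of day 10 (adjusted p = 0.0681 to 0.101).

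Acute phase and complement genes gave 4 calls of 13, all higher, with all 13 changes positive and a median of 1.27. Saa3, a serum amyloid protein made by inflamed tissue, had 159.6, 193 and 300.1 normalized counts on day 8 and 593, 851 and 1195 on day 10, a 4.01-fold rise (log2 fold change 2.00 ± 0.39, adjusted p = 0.00147). Serping1, the inhibitor of complement C1, had 23.8, 22.2 and 25.7 on day 8 and 46.9, 88.4 and 102 on day 10 (log2 fold change 1.72 ± 0.31, adjusted p = 0.000572). Lcn2, an iron-binding protein, had 43, 51.7 and 29.8 on day 8 and 162, 46.6 and 151 on day 10 (log2 fold change 1.56 ± 0.37, adjusted p = 0.012), so replicate 2 of day 10 stayed within the day 8 range. Lbp, the lipopolysaccharide-binding protein, had 17, 34.8 and 54.9 on day 8 and 111, 86 and 83.9 on day 10 (log2 fold change 1.34 ± 0.37, adjusted p = 0.0428). Of the same secreted kind, but named for the size of their change, were Chi3l1, a chitinase-like glycoprotein, with 32.8, 43.3 and 32.8 on day 8 and 449, 171 and 109 on day 10 (log2 fold change 2.75 ± 0.48, adjusted p = 0.000429), and Apod, a lipocalin, with 23.8, 11.6 and 7.16 on day 8 and 37, 128 and 96.1 on day 10 (log2 fold change 2.69 ± 0.57, adjusted p = 0.00475). Replicate 1 had the highest day 10 level of Chi3l1 and the lowest of Apod. By the DESeq2 Wald test the adjusted p was 0.311 for Saa3 (range 1.89e-22 to 0.311 over its alternatives), 0.0808 for Chi3l1 (range 1.56e-22 to 0.0808) and 0.226 for Apod (range 3.13e-09 to 0.226). The call of Lcn2 was lost without replicates 1 or 3 of day 8 or replicates 1 or 3 of day 10 (adjusted p = 0.0627 to 0.141). That of Lbp was lost without replicates 1 or 2 of day 8 or any replicate of day 10 (adjusted p = 0.0964 to 0.273), and that of Apod without replicate 2 of day 10 (adjusted p = 0.0639).

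Chemokines and cytokines of fibroblasts gave 5 calls of 16, all higher, with a median of 0.69. Ccl2, which draws monocytes, had 735, 629 and 725 normalized counts on day 8 and 957, 1860.3 and 1999 on day 10, a 2.31-fold rise (log2 fold change 1.21 ± 0.23, adjusted p = 0.00104), and the neighbouring Ccl7 had 911, 712 and 941 on day 8 and 1219.7, 1894 and 1778 on day 10 (log2 fold change 0.93 ± 0.20, adjusted p = 0.00575). Cxcl5, which draws neutrophils, had 36.2, 68.6 and 83.5 on day 8 and 173, 211 and 279 on day 10 (log2 fold change 1.79 ± 0.27, adjusted p = 7e-05). Ccl5, a T cell chemokine, had no read on day 8 and 39.5, 19.12 and 8.48 normalized counts on day 10, at least 8.03-fold higher (adjusted p = 0.00499, and 0.173 by the DESeq2 Wald test, with 1.88e-07 to 0.173 across the alternatives). Cxcl1 was the remaining call (log2 fold change 1.06 ± 0.27, adjusted p = 0.0201). The 8 leukocyte markers had a sum of 1573 to 2590 on day 8 and 668 to 2809 on day 10, with 0 called, and Spi1 was at 0 on both days. Their part in the chemokine values was not tested. The largest of them, Lyz2, had 2325, 1359 and 1413 on day 8 and 529.6, 2412 and 2257 on day 10 (adjusted p = 0.985). The call of Ccl7 was lost without replicate 2 of day 8 or replicates 2 or 3 of day 10 (adjusted p = 0.0545 to 0.0762), and that of Cxcl1 without replicates 1 or 2 of day 8 or replicates 2 or 3 of day 10 (adjusted p = 0.0559 to 0.169).

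Genes of the extracellular matrix gave few calls, all higher. The MMP and TIMP list, proteases that cut matrix and their inhibitors, gave 3 calls of 9 with a median of 0.96. Mmp3 (stromelysin) had 11.3, 5.28 and 16.1 normalized counts on day 8 and 72.8, 206 and 161 on day 10, a 12.6-fold rise (log2 fold change 3.65 ± 0.66, adjusted p = 0.000651). Timp1 had 803, 934 and 1261 on day 8 and 1337, 2263 and 1849.7 on day 10 (log2 fold change 0.86 ± 0.24, adjusted p = 0.0441) and Mmp13 0, 2.11 and 7.76 on day 8 and 7.41, 93.2 and 31.1 on day 10 (adjusted p = 0.0446, and 0.0618 with the replicate block, with 5.62e-08 to 0.397 across the alternatives). Of 23 matrix proteoglycans and glycoproteins 3 were called, with 20 changes positive and a median of 0.58. They were Lox, which cross-links collagen (129, 112 and 212 on day 8 and 160.5, 366 and 341 on day 10, adjusted p = 0.027), Postn, periostin (61.1, 91.8 and 34 on day 8 and 96.3, 227 and 186 on day 10, adjusted p = 0.027), and Tnc, tenascin C (24.9, 59.1 and 35.2 on day 8 and 58, 158 and 69.7 on day 10, adjusted p = 0.0354). Of 15 collagens 0 were called by edgeR or the DESeq2 Wald test and 5 were higher at an unadjusted p under 0.05, with 14 positive changes and a median of 0.52. Col3a1 did not pass (152, 210.0 and 249 on day 8 and 138, 538 and 532 on day 10, log2 fold change 0.98 ± 0.30, adjusted p = 0.0791). Their MEF means were 1404 for Lox, 1453 for Tnc, 4222 for Timp1 and 545 for Col3a1, with ESC means of 1.03, 0, 84.5 and 0.

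Replicate 1 of day 10 stood apart in the matrix genes. It was the lowest day 10 library for 22 of the 23 proteoglycans and glycoproteins, 14 of the 15 collagens and 9 of the 9 MMP and TIMP genes, against 3827 of all 10237 genes. Without it 7 of the 23 and 6 of the 9 were called. With replicate 1 of day 8 left out, 0 of the 23 and 1 of the 9 were called, without replicate 2 of day 10 also 0 and 1, and without its replicate 3 1 and 1. Without replicate 2 of day 8 they were 3 and 1. The call of Lox was lost without replicates 1 or 2 of day 8 or replicates 2 or 3 of day 10 (adjusted p = 0.179 to 0.208). That of Postn was lost without replicates 1 or 3 of day 8 or replicates 2 or 3 of day 10 (adjusted p = 0.114 to 0.182), and that of Tnc without replicates 1 or 3 of day 8 or replicate 2 of day 10 (adjusted p = 0.116 to 0.455). For Timp1 it was lost without replicates 1 or 2 of day 8 or replicates 2 or 3 of day 10 (adjusted p = 0.146 to 0.27), and for Mmp13 without replicates 1 or 2 of day 8 or replicates 2 or 3 of day 10 (adjusted p = 0.082 to 0.397).

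DNA replication and S phase genes gave 3 calls of 39, all higher, where 1.58% of all genes tested were called higher. For 12 of the 39 every day 10 library lay above every day 8 library (9.99% of all genes did so), and the median was 0.32. Rrm2, the subunit of ribonucleotide reductase that supplies deoxynucleotides in S phase, had 122, 122 and 143 normalized counts on day 8 and 299, 219 and 270.4 on day 10, a 2.03-fold rise (log2 fold change 1.02 ± 0.17, adjusted p = 0.000263). Prim1, the primase that starts new strands, had 56.6, 41.2 and 39.97 on day 8 and 133, 95.6 and 106 on day 10 (log2 fold change 1.30 ± 0.22, adjusted p = 0.000303), and Mcm4, a subunit of the replicative helicase, had 34, 30.6 and 48.9 on day 8 and 85.2, 81.2 and 70.7 on day 10 (log2 fold change 1.03 ± 0.25, adjusted p = 0.0171). A further 3 genes of DNA synthesis and repair are not on that list and were named after their values were seen. Tk1, thymidine kinase, had 32.8, 20.05 and 25.7 on day 8 and 80.2, 74.1 and 87.6 on day 10 (log2 fold change 1.63 ± 0.28, adjusted p = 0.000394). Brca1, a repair protein, had 22.6, 24.3 and 24.5 on day 8 and 95.1, 68.1 and 57.5 on day 10 (log2 fold change 1.61 ± 0.28, adjusted p = 0.000511). Brca2, its partner in repair, fell, with 153, 134 and 129 on day 8 and 63, 62.1 and 67.8 on day 10 (log2 fold change −1.10 ± 0.20, adjusted p = 0.00103). Pcna missed the threshold without overlap of the days (389, 338 and 393 on day 8 and 633, 472 and 561 on day 10, log2 fold change 0.58 ± 0.17, adjusted p = 0.0667, and 0.0416 with the replicate block, with 0.0279 to 0.269 across the alternatives). Of 34 genes of mitosis 0 were called by either tool and 5 were higher at an unadjusted p under 0.05, with 29 positive changes and a median of 0.22, and Mki67 had 73.6, 70.7 and 54.3 on day 8 and 100.00, 70.5 and 48.1 on day 10 (adjusted p = 0.887). The call of Mcm4 was lost without replicates 1 or 2 of day 8 or replicates 1 or 2 of day 10 (adjusted p = 0.0561 to 0.118).

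The glucose transporters Slc2a3 and Slc2a1 rose, while the list of 19 glycolytic enzymes and glucose transporters had 3 calls, all higher, and a median of 0.06. Slc2a3 (Glut3), the transporter of ESCs (mean 709), had 50.9, 30.6 and 43.5 normalized counts on day 8 and 141, 109 and 89.5 on day 10, a 2.7-fold rise in which all day 10 libraries shared (log2 fold change 1.43 ± 0.24, adjusted p = 0.000303). Slc2a1 (Glut1) had 54.3, 38 and 53.7 on day 8 and 284, 81.2 and 81 on day 10 (log2 fold change 1.59 ± 0.32, adjusted p = 0.0022) and Pgk1, a glycolytic enzyme, 448, 465 and 496 on day 8 and 1082, 548 and 624 on day 10 (log2 fold change 0.68 ± 0.18, adjusted p = 0.0361). In both, replicate 1 of day 10 was far above the other two. The same library was the highest day 10 library for 13 of the 15 hypoxia and HIF target genes and 14 of the 19 glycolytic genes, against 3614 of all 10237 genes. Bnip3, a mitophagy receptor and HIF target, had 20.4, 21.1 and 14.9 on day 8 and 233, 49 and 34.9 on day 10 (log2 fold change 2.51 ± 0.56, adjusted p = 0.00734). With Slc2a1 it made up the 2 calls of the hypoxia list, whose median was 0.37, and without replicate 1 of day 10 the hypoxia list had 0 calls and the glycolytic list 1. The call of Slc2a1 was lost without replicate 1 of day 10 (adjusted p = 0.164), that of Bnip3 without replicate 1 of day 10 (adjusted p = 0.308), and that of Pgk1 without any replicate of day 8 or replicate 1 of day 10 (adjusted p = 0.0673 to 0.448).

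Of the 84 genes that fell 11 belonged to a list (13.1%), where 43.8% of the genes that rose and 8.02% of all genes tested did. The lists were chosen with earlier results of these data known, so these shares do not describe the functions of the genes that fell. Of those with the largest changes and 3 day 8 libraries above 3 day 10 libraries, Aqp8, a water channel, had 112, 176 and 66.8 normalized counts on day 8 and 44.4, 10.8 and 19.8 on day 10, a fall by a factor of 4.71 (log2 fold change −2.24 ± 0.35, adjusted p = 0.000121). It had means of 0 in MEFs and in ESCs, and of 0.271 on day 3 and 36.7 on day 6. Robo2, an axon guidance receptor, had 22.6, 38 and 43 on day 8 and 8.64, 15.5 and 2.83 on day 10 (log2 fold change −2.01 ± 0.43, adjusted p = 0.00477), and Ttl, the tubulin tyrosine ligase, 52.1, 34.8 and 53.7 on day 8 and 4.94, 16.7 and 17.9 on day 10 (log2 fold change −1.80 ± 0.33, adjusted p = 0.000783). Urm1, a modifier of tRNA and proteins, had 12.5, 36.9 and 17.3 on day 8 and 6.17, 4.78 and 5.65 on day 10 (adjusted p = 0.0334), and the mitochondrial tRNA gene mt-Tw 187, 66.5 and 81.1 on day 8 and 24.7, 34.6 and 34.9 on day 10 (adjusted p = 0.00088). In mt-Tw the day 8 level of replicate 1 was more than the sum of the other two. Spink2, a serine protease inhibitor named after its values were seen, had the highest day 8 mean of the 84 genes, with 2152, 2129 and 1361 on day 8 and 978, 925 and 857 on day 10 (log2 fold change −1.03 ± 0.17, adjusted p = 0.000303), means of 2236 and 3024 on days 3 and 6 and 6.2 and 1.21 in MEFs and ESCs. The call of Robo2 was lost without replicate 3 of day 10 (adjusted p = 0.0866), and that of Urm1 without replicate 2 of day 8 or any replicate of day 10 (adjusted p = 0.0561 to 0.247).

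Fatty acid binding proteins and the stress factor Atf4 were among the falls from the lists. Fabp3 had 674, 736 and 345 normalized counts on day 8 and 205, 278 and 321 on day 10 (log2 fold change −1.11 ± 0.21, adjusted p = 0.00104) and Fabp5 1596, 1518 and 1454 on day 8 and 990.1, 707 and 781 on day 10 (log2 fold change −0.88 ± 0.21, adjusted p = 0.015), the 2 calls among 21 aldehyde, lipid and xenobiotic enzymes. Atf4, the transcription factor of the integrated stress response, had 417, 439 and 356 on day 8 and 251, 251 and 239 on day 10 (log2 fold change −0.70 ± 0.16, adjusted p = 0.0101), the 1 call of 19 ATF4 and ER stress genes, whose median was −0.16. Of its targets on that list, Asns and Trib3 did not pass, and targets outside the list are not described here. Asns had 543, 619 and 475 on day 8 and 612, 508 and 439 on day 10 (adjusted p = 0.891) and Trib3 54.3, 76 and 35.8 on day 8 and 37, 46.6 and 39.6 on day 10 (adjusted p = 0.499). Klf10, an early response gene of TGF-β, had 366, 334 and 299 on day 8 and 219.8, 213 and 192 on day 10 (log2 fold change −0.67 ± 0.16, adjusted p = 0.012). All 4 that fell had every day 8 library above every day 10 library. Genes of the protein synthesis machinery had mostly negative changes. Of 50 cytosolic ribosomal proteins 0 were called by edgeR and 1 by the DESeq2 Wald test (lower), 11 were lower at an unadjusted p under 0.05, 4 changes were positive, 14 had every day 8 library above every day 10 library (8.21% of all genes did) and the median was −0.25. Of 33 nucleolar genes of ribosome biogenesis 0 were called by edgeR and 1 by the Wald test (lower), 10 were lower at an unadjusted p under 0.05, 3 changes were positive, 10 did not overlap with day 8 higher, and the median was −0.27. The calls of Fabp5 and Atf4 were lost without replicate 1 of day 8 or replicates 2 or 3 of day 10 (adjusted p = 0.0655 to 0.1), and without replicates 1 or 2 of day 8 or replicate 3 of day 10 (adjusted p = 0.0511 to 0.0636). That of Klf10 was lost without replicate 1 of day 8 (adjusted p = 0.0864) or replicate 3 of day 10 (adjusted p = 0.0872).

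Myelin, choroid plexus and neuronal genes had the deepest falls, and most of their day 8 reads lay in replicate 1. Mbp, a protein of the myelin sheath, had 1272, 147 and 184 normalized counts on day 8 and 11.1, 20.3 and 12.2 on day 10 (log2 fold change −5.19 ± 0.78, adjusted p = 6.31e-05). Ttr, a thyroid hormone carrier made by choroid plexus, liver and visceral endoderm, had 892, 114 and 96 on day 8 and 0, 3.58 and 0.942 on day 10 (log2 fold change −7.84 ± 1.30, adjusted p = 0.000263). Enpp2, the enzyme autotaxin, had 327, 38 and 39.4 on day 8 and 0, 1.19 and 0 on day 10, with a ratio of the summed counts of 302 (95% interval 53.9 to 11955) (adjusted p = 0.000207). Replicate 1 was thus the highest day 8 library in all 3 genes. Kif5a, a neuronal kinesin, had 61.1, 8.44 and 13.1 on day 8 and 0, 0 and 0.942 on day 10 (ratio 64.9 (95% interval 11.3 to 2592), adjusted p = 0.0013). The reads were in each of the 3 wells of replicate 1, with 373, 360 and 391 raw reads of Mbp against 37 to 57 in the wells of replicate 2 and 78 to 141 in those of replicate 3. In replicates 2 and 3 Mbp, Ttr and Enpp2 still lay above day 10, and without replicate 1 of day 8 their adjusted p was 0.00396, 0.0095 and 0.00756 (ranges 5.21e-81 to 0.00396, 1.7e-83 to 0.0347 and 2.86e-38 to 0.00756 over their alternatives). The call of Kif5a was lost without replicate 1 of day 8 (adjusted p = 0.0503).

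Myelin and glial genes made 3 of the falls among 9 tested, with 0 positive changes and a median of −1.01. Without replicate 1 of day 8, 2 fell and the median was −0.64, and the DESeq2 Wald test called 1. The 7 glial markers summed to 308 to 1691 on day 8 and 84.8 to 155 on day 10. The 6 visceral endoderm markers summed to 112 to 899 and 9.88 to 17.9, which was largely Ttr. The part of other cells in these values was not tested. Of 14 neuronal genes 1 fell (Kif5a) and 2 changes were positive, with a median of −0.65. Stmn2, a tubulin-binding protein of growing axons, accounted for most of the neuronal marker sum, which was 3778 to 5492 on day 8 and 2640 to 3038 on day 10. It had 4287, 5083 and 3414 on day 8 and 2729.6, 2464 and 2649.7 on day 10 without passing (log2 fold change −0.70 ± 0.24, adjusted p = 0.118), and had already been at a mean of 5100.4 on day 3. Cyfip2 and Rab6b, genes active in neurons, were among the 12 largest falls. Cyfip2 had 32.8, 9.5 and 43 on day 8 and 0, 2.39 and 0.942 on day 10 (adjusted p = 0.0113). Rab6b had 45.3, 23.2 and 14.9 on day 8 and 8.64, 3.58 and 5.65 on day 10 (adjusted p = 0.0226). Replicate 3 was the highest day 8 library for Cyfip2 and replicate 1 for Rab6b. The call of Cyfip2 was lost without replicate 3 of day 8 (adjusted p = 0.0561) or replicate 3 of day 10 (adjusted p = 0.0866). That of Rab6b was lost without replicate 1 of day 8 or replicates 2 or 3 of day 10 (adjusted p = 0.107 to 0.217).

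**Figure D4:**
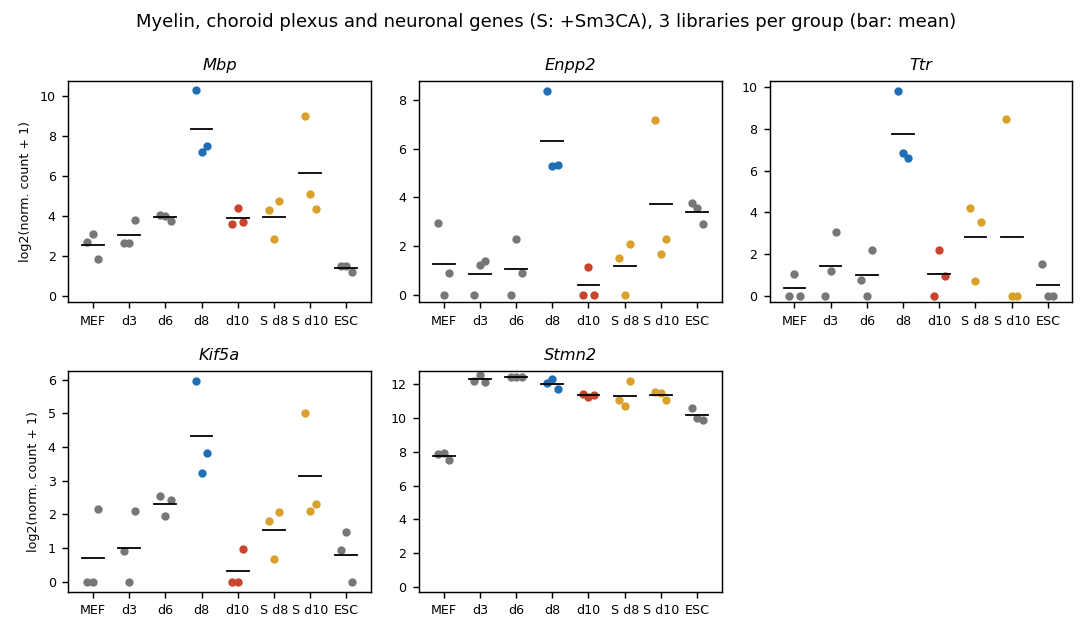
The log2 of the normalized count plus 1 (y axis) of Mbp, Enpp2, Ttr, Kif5a and Stmn2 in MEFs, Cont cells of days 3 to 10, +Sm3CA cells of days 8 and 10 (S) and ESCs (x axis), with 1 point per library in order of replicate and a bar at the mean of 3. In the first 4 genes replicate 1 of Cont day 8 is the highest blue point and replicate 1 of +Sm3CA day 10 the highest ochre one, while Stmn2 shows no such library.

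Lists of other cell functions had no call by edgeR. Of 74 subunits of oxidative phosphorylation, 0 were called by either tool, 4 were higher and 2 lower before adjustment (p under 0.05), and the median was 0.003. Of 14 mesenchymal transcription factors and cadherins 0 were called by either tool and 1 was higher at an unadjusted p under 0.05 (median 0.13), with 19.2, 22.2 and 20.9 on day 8 and 18.5, 25.1 and 34.9 on day 10 for Zeb2 (adjusted p = 0.701) and 12.5, 5.28 and 15.5 on day 8 and 7.41, 13.1 and 11.3 on day 10 for Zeb1 (adjusted p = 0.964). Of 16 target genes of TGF-β and SMAD3 the same counts were 0 and 3 (median 0.32), and of 19 Polycomb subunits 0 and 5 (median 0.33). Of 21 D cyclins, CDK inhibitors and p53 genes and of 9 Hox genes 0 were called by either tool and 0 had an unadjusted p under 0.05. Of 17 macrophage and leukocyte genes 0 were called by either tool and 1 was higher at an unadjusted p under 0.05, with a median of 0.21. Of 23 lysosome genes 0 were called by edgeR and 1 by the Wald test, with 5 higher and 1 lower before adjustment (p under 0.05). Single calls came from the placental homeobox gene Rhox6 (0, 0 and 3.58 on day 8 and 14.8, 16.7 and 10.4 on day 10, adjusted p = 0.0388), from Car2, carbonic anhydrase 2 (30.6, 49.6 and 53.1 on day 8 and 91.4, 199.5 and 219 on day 10, log2 fold change 1.91 ± 0.28, adjusted p = 5.36e-05), from the imprinted transporter Slc22a18 (10.2, 9.5 and 8.95 on day 8 and 30.9, 37 and 33 on day 10, log2 fold change 1.82 ± 0.38, adjusted p = 0.00391) and from Cnn2, a calponin (46.4, 93.9 and 69.8 on day 8 and 91.4, 154 and 149 on day 10, adjusted p = 0.0187). Car2 sits on the erythroid list, of which no other gene was called, and also has an ESC mean of 328. The call of Rhox6 was lost by the DESeq2 Wald test (adjusted p = 0.793) and without replicates 1 or 2 of day 8 or any replicate of day 10 (adjusted p = 0.0679 to 0.172), and that of Cnn2 without replicates 1 or 3 of day 8 or replicates 2 or 3 of day 10 (adjusted p = 0.0609 to 0.215).

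**Figure D5:**
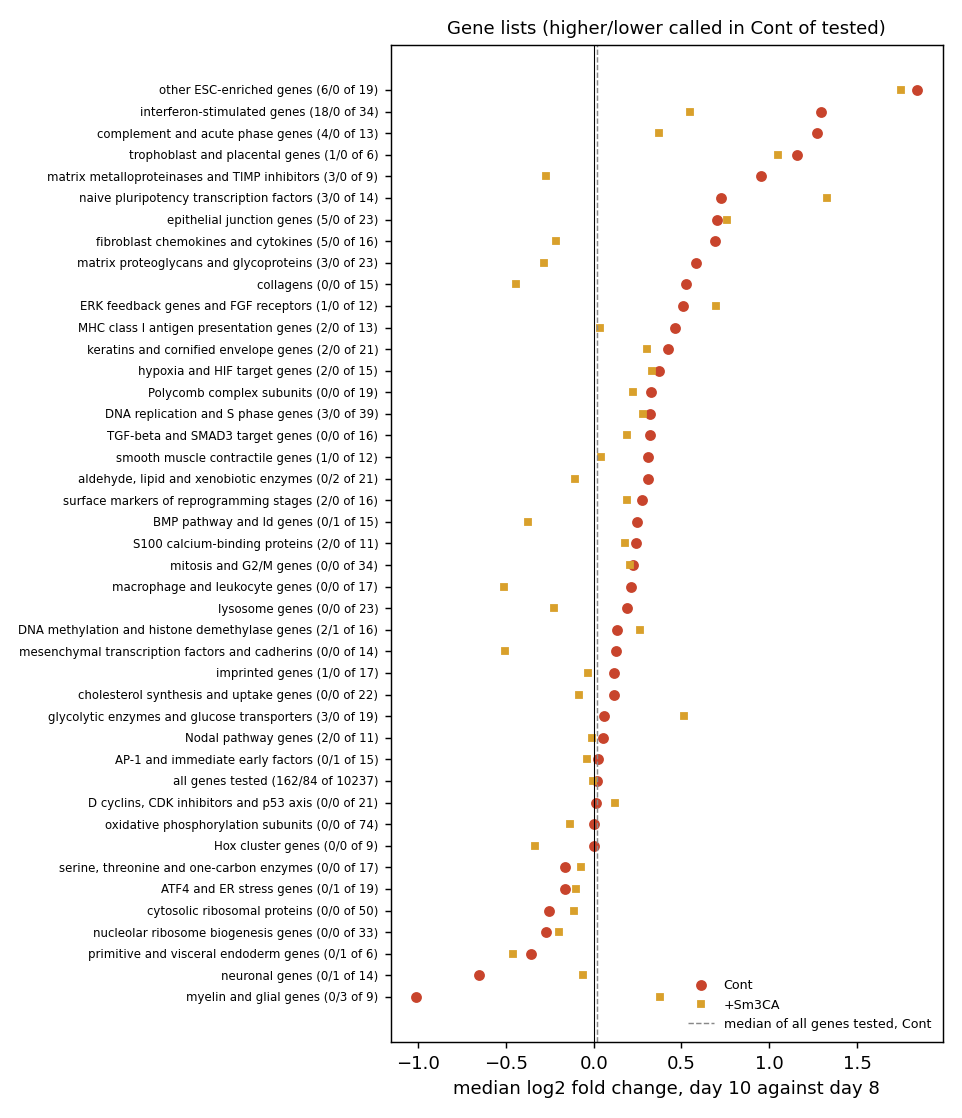
Median log2 fold change of day 10 against day 8 (x axis) for the gene lists with at least 6 genes tested (y axis, with the genes called higher and lower in Cont and the number tested) in Cont (circles) and +Sm3CA (squares). Other ESC-enriched genes (1.84), interferon-stimulated genes (1.29) and complement and acute phase genes (1.27) have the highest Cont medians, the myelin and glial list (−1.01) the lowest, and the dashed line is the median of all genes tested (0.02).

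The called genes were also set against ESCs and MEFs. Of the 162 genes that rose, 49 had an ESC mean above the day 10 mean (30.2%), 19 had one between the 2 days (11.7%) and 94 had one below the day 8 mean (58%). Over all genes tested, each read in the direction of its own change, the same shares were 46.6%, 10.2% and 43.2%. The highest of the 6 group means (MEFs, days 3, 6, 8 and 10, ESCs) was that of day 10 for 89 of them (54.9%), while it was for 1165 of all 10237 genes (11.4%). It was that of ESCs for 47 (29%, against 28.5% of all genes) and of MEFs for 25 (15.4%, against 27.3%). These genes were called for rising from day 8, so day 8 was highest for 0 of them. The selection itself thus favours day 10, and the share of all genes is not a like comparison. Of the 109 that were also tested between ESCs and MEFs, 51 were higher in ESCs (46.8%) and 47 lower, where 23.5% of the genes tested were higher in ESCs and 28.8% lower. Of the 84 that fell, 54 had an ESC mean below that of day 10 (64.3%). Between ESCs and MEFs 50 of the falls were tested. Of these 17 were higher in ESCs and 12 lower, where 23.5% and 28.8% of the genes tested there were. Of the 84, 79 had their highest mean on day 3 (22, or 26.2%), 6 (31, or 36.9%) or 8 (26, or 31%), where 13.1%, 10.4% and 9.26% of all genes did. Day 10 was highest for 0 of them, since they were called for falling, so these shares too are raised by the selection. Zfp42, Dppa5a and Tdgf1 had ESC means of 2812, 32823 and 1332, whereas Ifit1, Saa3, Cxcl5, Dmkn and Ly6g6c stood at 1.81, 0, 0, 0.602 and 1.34 in ESCs.

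The same step was measured with Smad3CA. In +Sm3CA cells 497 genes were called between the days (4.85%), 249 higher (2.43%) and 248 lower (2.42%), from their own 6 libraries within the same fit. Of the 162 rises in Cont 58 were also called higher there, which is 35.8% of the Cont list and 23.3% of the +Sm3CA list, and of the 84 falls 16 were also called lower (19% and 6.45%). Some of the ESC genes were called in both. Dppa5a changed by 4.71 in Cont and 5.34 in +Sm3CA on the log2 scale, Zfp42 by 2.53 and 2.44, Trh by 4.97 and 5.11, and the ESC-enriched list had medians of 1.84 and 1.75 with 6 and 10 calls. Nanog changed by 1.76 in +Sm3CA (adjusted p = 0.0872), and the difference between the series was not called (interaction −2.37 ± 1.07, adjusted p = 0.392). Interferon-stimulated genes had medians of 1.29 and 0.55 with 18 and 6 calls. Ifit1 changed by −0.01 (adjusted p = 0.997) and Ifitm3 by −0.10 (adjusted p = 0.851) in +Sm3CA, and neither difference between the series passed (interaction −1.76 ± 0.55, adjusted p = 0.173 for Ifit1, and interaction −1.26 ± 0.30, adjusted p = 0.0557 for Ifitm3). Ifitm2, of the same family as Ifitm3 and named after its values were seen, did pass (interaction −1.25 ± 0.28, adjusted p = 0.0413). It changed by 0.23 in Cont (adjusted p = 0.648) and by −1.02 in +Sm3CA (adjusted p = 0.00131). Its dependence on single libraries is not given here.

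Altogether 19 genes (0.186%) differed in their change between the series by the interaction term of the fit, or 1130 at an unadjusted p under 0.05, and 40 with the replicate block. Of the 19 genes 4 rose in Cont, 5 fell and 10 were not called there. Ccl7 rose in Cont and fell in +Sm3CA (log2 fold change −0.81, adjusted p = 0.0162), with 978, 1602 and 840.3 normalized counts on day 8 and 551, 771 and 624 on day 10 (interaction −1.74 ± 0.29, adjusted p = 0.00135). Cxcl5 had 80.3, 128 and 77.5 and 129, 80.8 and 95.1 there (interaction −1.70 ± 0.38, adjusted p = 0.0435). Mmp3 had 47.6, 105 and 4.84 and 26.6, 61.2 and 40.4 (interaction −3.95 ± 0.88, adjusted p = 0.0434). Ces1g, a carboxylesterase with close copies whose reads may be split, was named after its values were seen. It had 10.2, 14.8 and 14.3 on day 8 and 18.5, 66.9 and 32 on day 10 in Cont (adjusted p = 0.0337) and 8.65, 11 and 9.69 and 2.8, 1.09 and 2.6 in +Sm3CA (log2 fold change −2.16, adjusted p = 0.0453), so it rose in Cont and fell in +Sm3CA (interaction −3.71 ± 0.77, adjusted p = 0.0179). In +Sm3CA cells the days overlapped for Cxcl5 and Mmp3 and did not for Ccl7 and Ces1g. The interaction of Mmp3 was lost without replicates 1 or 2 of Cont day 8, 2 or 3 of Cont day 10, 2 of +Sm3CA day 8 or 1 or 3 of +Sm3CA day 10 (adjusted p = 0.0917 to 0.193). That of Cxcl5 was lost without replicates 1 or 2 of Cont day 8, 2 or 3 of Cont day 10, 2 of +Sm3CA day 8 or any of +Sm3CA day 10 (adjusted p = 0.0506 to 0.166). That of Ces1g was lost without replicates 1 of Cont day 8, 2 of Cont day 10, 2 of +Sm3CA day 8 or any of +Sm3CA day 10 (adjusted p = 0.0572 to 0.119), and its call in Cont without any replicate of day 8 or replicates 2 or 3 of day 10 (adjusted p = 0.0705 to 0.422). Mbp, Ttr, Enpp2 and Kif5a were among the 5 that fell, and were highest in replicate 1 of Cont day 8 and in replicate 1 of +Sm3CA day 10. On day 10 the +Sm3CA libraries held 520.1, 33.9 and 19.5 normalized counts of Mbp, 350.5, 0 and 0 of Ttr and 142, 2.19 and 3.91 of Enpp2. These genes were thus high in a single library of +Sm3CA day 10. In Cont they were highest in replicate 1 of day 8, but replicates 2 and 3 also lay above day 10. Their interactions had log2 values of 8.68, 11.42 and 12.92. Without replicate 1 of +Sm3CA day 10 the adjusted p of Ttr and Enpp2 was 0.977 and 0.124, while the interaction of Mbp was called with any library left out. The DESeq2 Wald test gave no adjusted p for the interactions of Mbp, Ttr, Enpp2, Kif5a, Mmp3, Cxcl5, Ces1g and Itm2a.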

How the data were processed

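RNA of sorted cells was measured with STRT RNA-seq in 84 wells, which make up 30 libraries. The table deposited by the authors holds unnormalized read counts of 18909 genes in each well, and the submitters' processing notes name Bowtie 0.12.9, DESeq2 1.6.3 and mm10 (GRCm38), with no molecular identifiers counted. The counts of a replicate's wells were summed here, 3 wells on Cont day 8 and 2 on day 10, because the wells are technical repeats. Each group had 3 biological replicates, whose pairs differed by more than sampling noise (chi-square per degree of freedom 2.97 to 5.87). The submitters' DESeq2 was not used for any value given here.

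Day 10 was compared with day 8 by edgeR 4.0.16 (R 4.3.3, limma 3.58.1), with TMM scaling, filterByExpr and a quasi-likelihood test (glmQLFit and glmQLFTest) over the 24 reprogramming libraries in 8 groups. The 10237 genes kept were adjusted together by Benjamini-Hochberg, with a threshold of 0.05, and adjusted p-values in the text are from this test unless another is named. The same fit gave +Sm3CA and the interaction, and a fit of the 6 ESC and MEF libraries gave ESCs against MEFs (8798 genes). The SE is the log2 fold change over the square root of F. Normalized counts were divided by size factors of DESeq2 1.42.0 over the 30 libraries. A gene with no read on 1 day was set to a floor of 3 reads per library, and one with 1 to 3 reads got a ratio with an exact 95% interval for counting error. Wells hold reads and not molecules, so intervals cover counting error only.

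The series' design pairs replicate numbers over the days of a series. The study's methods give no test for this step and name no block, so the block was used here as an alternative. Deviations of same-numbered day 8 and day 10 libraries from their group means correlated at 0.0316, −0.0553 and 0.000744, and of other-numbered ones at −0.0643 to 0.0744. The scripts were tested on simulated data. Python 3.11.15, pandas 2.3.3, numpy 2.4.6, scipy 1.17.1 and matplotlib 3.10.9 made the tables and plots. Promoters were the 250 bases before each RefSeq start (GRCm38.p6), and coordinates are from RefSeq of that build.

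The members and the 49 gene lists were chosen with earlier results of these data known. Genes were named where they were among the 12 largest called changes in a direction without overlap and with a mean of at least 20, the 4 smallest adjusted p of a list, the reprogramming factors with Nanog, Zfp42 and Smad3, the 5 smallest interaction p in a direction, or genes carried by 1 library. Members given to show what did not pass, and the genes so marked in the text, were named after their values were seen, as were Ly6g6c, Oas1a, Cxcl1, Stmn2 and Lyz2. A few genes that these rules name are not reported here.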

Additional observations from a re-analysis of the deposited data

Results flagged for a closer look

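For 12 genes the change from day 8 to day 10 differed between +Sm3CA and Cont by the interaction term (+Sm3CA minus Cont, log2 scale, adjusted p from edgeR). Mmp3, Cxcl5, Ccl7 and Ces1g, which rose in Cont, had interactions of −3.95, −1.70, −1.74 and −3.71 (adjusted p = 0.0434, 0.0435, 0.00135 and 0.0179). Mbp, Ttr, Enpp2 and Kif5a, which fell in Cont, had 8.68, 11.4, 12.9 and 8.34 (adjusted p = 7.13e-06, 8.69e-05, 1.53e-05 and 0.0016). These 4 were highest in replicate 1 of Cont day 8 and in replicate 1 of +Sm3CA day 10, and the part of these 2 libraries beyond their omission was not tested. Without replicate 1 of +Sm3CA day 10 the adjusted p was 0.977 for Ttr and 0.124 for Enpp2 and Kif5a.

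The other 4 were not called in Cont alone, although Itm2a was with the replicate block (adjusted p = 0.0318). Slc25a17, a peroxisomal transporter, had 172, 197 and 170.0 normalized counts on day 8 and 264, 195 and 217 on day 10 in Cont and 252, 287 and 208 and 118, 116 and 111 in +Sm3CA, with an interaction of −1.44 (adjusted p = 0.00209). Ctsl, a lysosomal protease, had 502, 509 and 439 on day 8 and 607, 785 and 759 on day 10 in Cont and 588, 534 and 421 and 219, 336 and 336 in +Sm3CA, with −1.36 (adjusted p = 0.00517, and 0.057 without replicate 1 of +Sm3CA day 10). Itm2a, a membrane protein, had 58.9, 102 and 60.3 on day 8 and 77.8, 130.2 and 217 on day 10 in Cont and 103, 119.5 and 125 and 64.5, 65.5 and 39.1 in +Sm3CA, with −1.99 (adjusted p = 0.0151, and 0.0904, 0.113 and 0.0709 without Cont day 8 replicate 1, Cont day 10 replicate 3 or +Sm3CA day 10 replicate 3). S100a1 had 218, 226 and 261 on day 8 and 296, 269 and 231 on day 10 in Cont and 319.5, 314 and 298 and 140.2, 163 and 173 in +Sm3CA, with −1.13 (adjusted p = 0.0151, and 0.0993, 0.0559 and 0.121 without Cont day 8 replicate 1, Cont day 10 replicate 2 or +Sm3CA day 10 replicate 1). In all 4 every +Sm3CA library of day 10 lay below every one of day 8.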

How the results depend on the processing

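The 246 calls of the Cont step (162 higher, 84 lower) became 374 with no filter on low counts, where 158 were lower, and 113 at an adjusted p under 0.01 (87 higher, 26 lower). Leaving out 1 library gave 104 to 294 calls, 73 to 184 higher and 26 to 127 lower, with the fewest in all without replicate 1 of day 8 and the most without its replicate 3. Calls of lower genes were 53 with scaling by total counts only (77% of calls higher against 66%), 50 in a fit of the 2 Cont groups and 135 in a fit of the Cont series. With the replicate block there were 256 calls (176 higher, 80 lower), and beside the text above it changed the call of no other gene described with a test there. DESeq2 size factors gave 242, a stricter filter 248, 2 wells per library 232 and the DESeq2 Wald test 198. Beside the genes given above, the Wald test lost the calls of Cyfip2, Dnmt3a, Rsad2, Ifit3, Dppa2, Dppa4, Zfp57, Urm1, Lbp, Postn, Tnc, Timp1, Mmp13, Smad9, S100a3, Cxcl1, Ces1g and Bnip3 (adjusted p = 0.0532 to 0.384). It gave no adjusted p for the changes of Enpp2 and Sox15 in Cont. The 497 calls in +Sm3CA became 236 from their own groups, 154 at 0.01 and 225 to 684 with 1 library left out. The 19 interactions became 45 with total counts only, 133 with no filter, 12 with a stricter filter, 8 from their own groups, 40 with the replicate block, 29 with 2 wells, 73 by the Wald test, 7 at 0.01 and 7 to 107 with 1 library left out. ESCs against MEFs (4597) stayed within 1.5 times. Of 1377 values of the Cont change in 87 named genes, 1182 kept their direction and side of the threshold, 182 lost the call, 11 gained it and 2 reversed, both Gstm5, whose uncalled log2 fold change ran from −0.68 (without Cont day 10 replicate 1) to 0.39 with 1 library left out and was −0.07 without Cont day 8 replicate 1. Where no cause is named, the cause was not tested. The read totals leave genes under about 10 counts, Dppa2 and Dppa4 among them, with wide intervals.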

Other observations

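A few groups of genes outside the lists were named after their values were seen. Slpi, a secreted inhibitor of leukocyte proteases, had 17, 22.2 and 19.7 normalized counts on day 8 and 27.2, 104 and 174 on day 10 (log2 fold change 2.38 ± 0.48, adjusted p = 0.00262). Ly6g6c, a surface protein of a multigene family, had 539, 783 and 641 on day 8 and 1032, 1703 and 2342 on day 10 (log2 fold change 1.37 ± 0.25, adjusted p = 0.00097). Sox15, a relative of Sox2 that is expressed in ESCs, had 0, 0 and 0.597 on day 8 and 3.7, 7.17 and 12.2 on day 10 with a ratio of the summed counts of 28.5 (95% interval 4.61 to 1176) (adjusted p = 0.0208). All 3 rose, and for each of them every day 10 library lay above every day 8 library. The call of Slpi was lost without replicate 3 of day 10 (adjusted p = 0.12), and that of Sox15 without any replicate of day 8 or replicates 2 or 3 of day 10 (adjusted p = 0.0542 to 0.172).

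Among the genes that fell, Polr1e, a subunit of RNA polymerase I, had 211, 271 and 135 normalized counts on day 8 and 131, 80.05 and 98 on day 10 (log2 fold change −0.98 ± 0.22, adjusted p = 0.00575), and Lyar, a nucleolar protein, had 157, 246 and 137 on day 8 and 102, 58.5 and 135 on day 10 (log2 fold change −0.84 ± 0.23, adjusted p = 0.0336). A group of 3 receptors known from B cells also fell, with 200.4, 217 and 107 on day 8 and 107, 68.1 and 71.6 on day 10 for Cd40 (adjusted p = 0.00533), 108, 136 and 98.4 on day 8 and 75.3, 55 and 36.7 on day 10 for Tnfrsf13c (adjusted p = 0.012) and 22.6, 20.05 and 10.1 on day 8 and 1.23, 3.58 and 2.83 on day 10 for Cxcr5 (adjusted p = 0.00857). The call of Polr1e was lost without replicate 2 of day 8 (adjusted p = 0.0944) or replicate 2 of day 10 (adjusted p = 0.0639), and that of Lyar without replicates 1 or 2 of day 8 or replicates 1 or 2 of day 10 (adjusted p = 0.0503 to 0.294). That of Cd40 was lost without replicate 2 of day 8 (adjusted p = 0.064) or replicate 3 of day 10 (adjusted p = 0.0542), that of Tnfrsf13c without replicate 2 of day 8 or replicates 2 or 3 of day 10 (adjusted p = 0.0515 to 0.147) and that of Cxcr5 without replicate 1 of day 8 (adjusted p = 0.0559) or replicate 3 of day 10 (adjusted p = 0.0544). Adjusted p-values are from edgeR.

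A few genes outside the calls were carried by 1 library. Gstm5 had 82.6, 136 and 109 on day 8 and 216, 74.1 and 65 on day 10, with replicate 1 of day 10 far above the others, Ccl12 40.8, 11.6 and 17.3 on day 8 and 21, 38.2 and 111 on day 10, with replicate 3 of day 10 highest, and Tspan8 14.7, 41.2 and 45.3 on day 8 and 143, 53.8 and 46.2 on day 10, with replicate 1 of day 10 highest.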
